A study of Homo sapiens with 4 samples.

Results

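The miR-548 family is a large group of short regulatory RNAs found in primates, and it was followed here in cortical interneurons made from hESCs and cultured with ethanol or without it. Its members were taken by name: every mature miRNA in the count table whose name begins with hsa-miR-548, which gave 81 of the 2656 mature miRNAs listed. Of these, 28 carried the name of the 5p arm of their hairpin, 28 that of the 3p arm and 25 no arm. The cells were H1 human embryonic stem cells differentiated into cortical interneurons, so both groups came from 1 cell line and shared the differentiation protocol and maturation medium. Neither the labels nor the study say whether the groups or the duplicates came from the same round of differentiation. In the exposed group the maturation medium contained around 50 to 100 mM ethanol for 7 days, followed by a further day without ethanol before collection, and the unexposed group received none. Each group had 2 small RNA-seq libraries, from treatments run in duplicate, and the p-values measure only the spread between these libraries, which may be technical.

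Many miR-548 hairpins derive from Made1, a short palindromic transposable element of the mariner type that spread through primate genomes. Because the element is palindromic, its transcript folds back on itself into a hairpin, and the 5p and 3p strands of such hairpins are close to reverse complements of each other. A mature miRNA guides the silencing complex to messenger RNAs mainly through its seed, the bases 2 to 8 counted from its 5′ end, so members that share a seed can in principle recognise the same sites. As copies of one repeat, family members also resemble each other along most of their length, and a short read can fit more than 1 of them.

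RefSeq sequences (GRCh38.p14) were matched by name for 55 of the 81 members. These were 18 to 23 bases long and held 53 different sequences with 29 different seeds. The stretch that returned most often among the abundant 3p strands is shown first. The following 5 members share a run of 17 bases, given in capitals, and no other miRNA in the table with a RefSeq sequence holds it. They were chosen after the data were seen. Together they held 27.2 to 35.6% of the family's counts in a library, of which miR-548av-3p had only 10 to 21 counts.
miR-548o-3p: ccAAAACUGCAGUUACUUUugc
miR-548ah-3p: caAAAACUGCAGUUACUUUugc
miR-548am-3p: caAAAACUGCAGUUACUUUugu
miR-548p: uagcaAAAACUGCAGUUACUUU
miR-548av-3p: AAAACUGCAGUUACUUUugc

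The next sequences show how the seed, in capitals, varies between members that are otherwise alike. The first 3 have the seed AAAGUAA, the most frequent among the 55 members with a sequence. The next 2 differ from it within the seed. The last, miR-548bc, belongs to the 3p type, and its difference between the groups had the smallest unadjusted P in the family.
miR-548b-5p: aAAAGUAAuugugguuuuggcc
miR-548ab: aAAAGUAAuuguggauuuugcu
miR-548j-5p: aAAAGUAAuugcggucuuuggu
miR-548k: aAAAGUACuugcggauuuugcu
miR-548ah-5p: aAAAGUGAuugcaguguuug
miR-548bc: aAAAACUGugauuacuuuugc

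The letters AAAGUAA were found, anywhere in the mature sequence, in 17 of the 55 members and in 3 of the 2312 other miRNAs with a sequence (0.13%). Their reverse complement UUACUUU was found in 18 members and in 4 others (0.173%). One or the other was present in 35 members (63.6%) and in 7 others (0.303%). The family was rich in A and U, with a median A+U content of 66.7% (45.5 to 84.2%) against 47.8% in the other miRNAs.

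Most of the family was present, but at low levels. Of the 81 members, 71 (87.7%) had at least 1 count in some library, against 1825 of all 2656 miRNAs (68.7%), and 52 had a count in all 4 libraries. The remaining 10 were at 0 throughout, among them miR-548e-5p, miR-548c-3p and miR-548y. Most members were rare, since 48 stayed under 10 counts in every library and 24 had at least 10 counts in every library.

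The libraries differed in depth, from 12100425 to 24858230 counts in mature miRNAs, and the exposed libraries were the deeper ones. The number of members detected was 64 and 63 in exposed replicates 1 and 2, and 54 and 57 in unexposed replicates 1 and 2. Both exposed libraries thus held more members as sequenced. When every library was reduced by calculation to the depth of the shallowest, the expected numbers were 54.8 and 53.4 with ethanol and 52.5 and 57.0 without it, and the groups overlapped. With at least 10 counts required, 31 and 32 members were detected with ethanol and 25 and 27 without it. At a minimum level of 1 CPM (counts scaled to a library of 1000000 counts) there were 23 and 22 against 20 and 23. A count of 0 allowed a level of up to 0.121 CPM in the deepest and 0.248 CPM in the shallowest library, taking 3 counts as the limit. Such limits, and the intervals for single libraries given here, cover counting error only.

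The labelled cell type was checked with miRNAs known from each tissue. The 5 neuronal miRNAs on the list summed to 332000 and 371000 CPM with ethanol and to 401000 and 377000 CPM without it, so this sum, like that of the family, was lower in both exposed libraries. Its members went different ways, since miR-7-5p was lower in both exposed libraries (89900 and 132000 against 158000 and 155000 CPM) and miR-124-3p higher in both (6130 and 3290 against 2490 and 2330 CPM). The 7 miRNAs of pluripotent stem cells summed to 2.74 to 4.13 CPM, with miR-367-3p and miR-373-3p at 0. The 4 blood miRNAs summed to 0.0826 to 0.684 CPM, with miR-223-3p and miR-142-3p at 0. The single endothelial miRNA, miR-126-3p, was at 751 to 1150 CPM, the 3 oligodendrocyte miRNAs at 64.3 to 123 CPM and the 4 mesenchymal ones at 77.2 to 119 CPM. The ranges of the exposed and unexposed libraries overlapped for the oligodendrocyte and mesenchymal lists, and miR-126-3p was higher in both exposed libraries. The 2 epithelial miRNAs summed to 59.6 to 93.6 CPM, the 2 of skeletal muscle to 1.93 to 2.92 CPM and the liver miRNA miR-122-5p was at 14.0 to 44.4 CPM. The part of other cells in the miR-548 levels was not tested.

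All 81 members together took a small share of the miRNA reads, and that share was lower in the exposed cells. In such bulk RNA, fewer cells of a type and less RNA per cell cannot be told apart. The family had 3029 counts in exposed replicate 1 and 3725 in exposed replicate 2, against 2182 and 2177 in unexposed replicates 1 and 2. As a share of each library this was 136 CPM in exposed replicate 1, with a 95% Wilson interval from 132 to 141 CPM, and 150 CPM (145 to 155) in exposed replicate 2. In the unexposed libraries it was 157 CPM (150 to 163) and 180 CPM (173 to 188). The exposed mean was 143 ± 9.58 CPM (SD, n = 2) and the unexposed mean 168 ± 16.5 CPM (SD, n = 2), a difference of -0.23 on the log2 scale. The groups did not overlap, although the intervals of exposed replicate 2 and unexposed replicate 1 met. The gap was small beside the replicate spread, since the difference was -0.13 without unexposed replicate 2 and -0.33 without unexposed replicate 1.

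Scaling by TMM (trimmed mean of M-values, which corrects for a few abundant miRNAs taking up reads) reversed the order of the unexposed replicates and left both exposed libraries below both unexposed ones. After it, the family stood at 120 and 153 CPM with ethanol and at 185 and 169 CPM without it. The means were 137 ± 23.3 and 177 ± 11.2 CPM (SD, n = 2 each), or -0.37 on the log2 scale. No p is given for a sum over members that were picked as a family. With 2 libraries against 2, an exact permutation test could not have gone below p = 0.333.

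**Figure D1:**
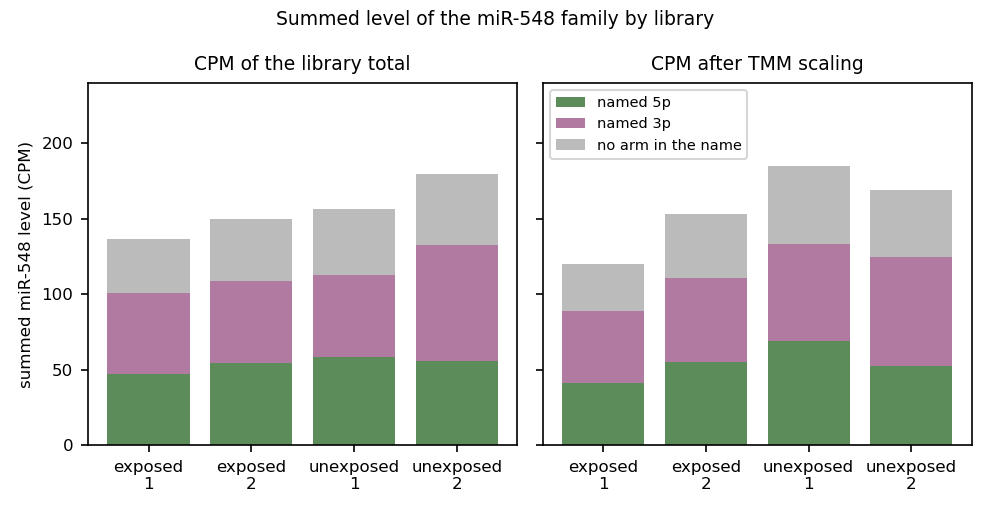
Summed level of the 81 miR-548 members in each library, in CPM of the library total (left) and after TMM scaling (right), on axes from 0. The stacked colours are the members named 5p, named 3p and without an arm; both exposed bars are lower than both unexposed bars in each panel.

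The sum was not carried by 1 arm. After TMM scaling the 3p members summed to 47.7 and 55.5 CPM with ethanol and to 64.7 and 72.7 CPM without it, and the groups did not overlap. The 5p members summed to 41.3 and 55.3 CPM against 68.7 and 52.2 CPM, and here exposed replicate 2 was above unexposed replicate 2. The members without an arm summed to 31.2 and 42.2 CPM against 51.6 and 44.2 CPM, again without overlap. On the scale of the library total the 3p sums were 54.1 and 54.4 CPM against 54.7 and 77.4 CPM, so that the lower unexposed library was within 1 CPM of the exposed ones.

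A few members made up most of the family. Over the 4 libraries, 7 members held 50% and 19 members 90% of its 11113 counts, and the 10 most abundant took 68.4 to 73.6% in each library. Even the highest, miR-548o-3p, averaged 16.6 CPM and ranked 314 in the table. Only 6 members averaged at least 10 CPM and 22 at least 1 CPM. After the filter on low counts 30 members could be tested (37.0%, against 32.5% of the table), with a median level of 2.79 CPM against 6.5 CPM for all 863 miRNAs tested. Of the 51 not tested, 10 were at 0, 38 reached 1 to 9 counts, and 3 reached 10 to 13 counts in their highest library.

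**Figure D2:**
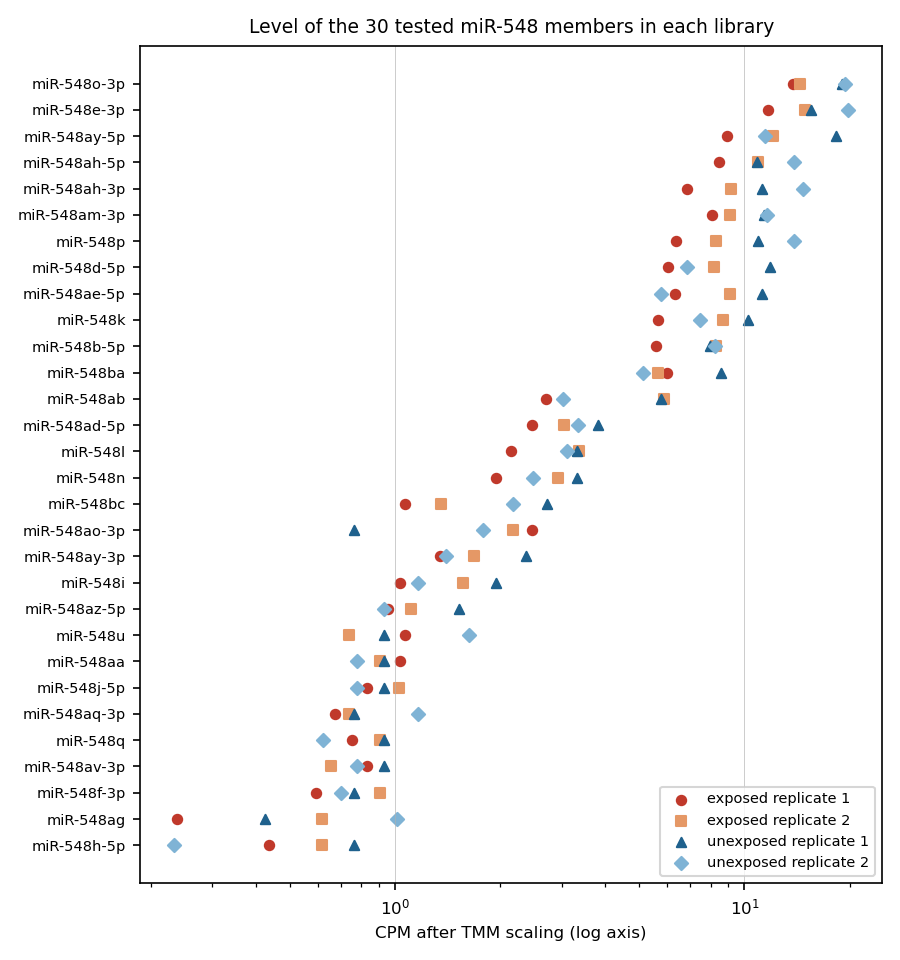
Level of the 30 tested miR-548 members in each of the 4 libraries, in CPM after TMM scaling on a log axis, ordered by mean level. The most abundant member, miR-548o-3p, lies between 13.8 and 19.4 CPM, and the lowest members lie under 1 CPM.

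miR-548o-3p is copied from 2 hairpins, at chr20:38516607-38516628 (plus strand) in an intron of RALGAPB, which is transcribed in the same direction, and at chr7:102405748-102405769 (minus strand) in an intron of PRKRIP1, on its opposite strand. Its level after TMM scaling was 13.8 and 14.4 CPM with ethanol and 19.1 and 19.4 CPM without it. The replicates lay close together and the groups did not overlap. The log2 fold change was -0.45 ± 0.26 (SE), with an adjusted p = 0.922 in edgeR's quasi-likelihood test with Benjamini-Hochberg adjustment over all 863 miRNAs tested, the lowest adjusted value in the whole table.

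The second most abundant member, miR-548e-3p, was at 11.7 and 14.9 CPM with ethanol and at 15.5 and 19.8 CPM without it. The groups did not overlap, but the nearest libraries of the groups were closer than the replicates of either. This was a log2 fold change of -0.41 ± 0.29 (SE), which was -0.24 without exposed replicate 1 and -0.23 without unexposed replicate 2. The spread of miR-548o-3p and miR-548e-3p overlapped in both groups, so their order in the family was not separated by these libraries.

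The RefSeq position of miR-548p is chr5:100816498-100816519 (minus strand), in an intron of ST8SIA4. This gene encodes a polysialic acid transferase known for modifying the neural cell adhesion molecule. The counts carry no coordinates, so the reads were not traced to this site. miR-548p was at 6.38 and 8.30 CPM with ethanol and at 10.9 and 13.8 CPM without it. The gap between the groups was larger than that between the exposed replicates and smaller than that between the unexposed ones. The log2 fold change was -0.75 ± 0.30 (SE), with an unadjusted P under 0.05 and an adjusted p = 0.922 in edgeR's test. The log2 fold change was -0.58 without exposed replicate 1 and -0.96 without exposed replicate 2. It was -0.91 without unexposed replicate 1 and -0.58 without unexposed replicate 2.

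miR-548am-3p, at chrX:16627019-16627040 (minus strand) in an intron of CTPS2, was at 8.09 and 9.12 CPM with ethanol and at 11.4 and 11.6 CPM without it. This was a smaller difference than that of miR-548p, with replicates closer to each other. It came to -0.41 ± 0.27 (SE) on the log2 scale. CTPS2 makes CTP, a building block of RNA.

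Both strands named for the miR-548ah hairpin had counts. The hairpin lies in an intron of SHROOM3, a gene known for its role in shaping the neural tube. The 3p strand (chr4:76575597-76575618, plus strand) was at 6.86 and 9.16 CPM with ethanol and at 11.2 and 14.7 CPM without it, and the groups did not overlap. The log2 fold change of this strand was -0.69 ± 0.31 (SE), with an unadjusted P above 0.05 in edgeR's test on all libraries. With a library left out it ranged from -0.92 without exposed replicate 2 to -0.49 without unexposed replicate 2. The 5p strand (chr4:76575561-76575580) was at 8.45 and 10.9 CPM against 10.9 and 13.8 CPM, and exposed replicate 2 was slightly above unexposed replicate 1. For this strand the log2 fold change was -0.35 ± 0.30 (SE), and it was -0.17 without exposed replicate 1 or unexposed replicate 2 and -0.55 without exposed replicate 2.

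The other abundant members were 5p strands or had no arm in the name. miR-548ay-5p was at 8.92 and 12.1 CPM with ethanol and at 18.2 and 11.4 CPM without it. miR-548d-5p was at 6.03 and 8.18 CPM against 11.9 and 6.84 CPM, and miR-548ae-5p at 6.34 and 9.08 CPM against 11.2 and 5.75 CPM. miR-548k, at chr11:70283986-70284007 (plus strand) in an intron of PPFIA1, was at 5.67 and 8.67 CPM against 10.3 and 7.46 CPM. The sequences of miR-548ay-5p, miR-548d-5p and miR-548ae-5p were not matched, so it is not known whether their values are independent. All 4 members had overlapping groups, and in all 4 unexposed replicate 1 was the highest library. Their log2 fold changes were -0.50 ± 0.33 (miR-548ay-5p), -0.40 ± 0.36 (miR-548d-5p), -0.13 ± 0.39 (miR-548ae-5p) and -0.30 ± 0.34 (miR-548k), each with its SE, and none had a P under 0.05. Without unexposed replicate 1 the values of miR-548d-5p and miR-548ae-5p turned to 0.054 and 0.42. Without unexposed replicate 2 those of miR-548ay-5p and miR-548d-5p were -0.80 and -0.75, while miR-548ay-5p was at -0.12 without unexposed replicate 1. With a library left out miR-548k ranged from -0.64 without exposed replicate 2 to -0.027 without exposed replicate 1.

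miR-548bc was a rare member whose counts were nearly equal, 27 and 33 with ethanol and 32 and 28 without it, while the exposed libraries were the deeper ones. Scaled, it was at 1.07 and 1.36 CPM against 2.71 and 2.18 CPM, and the groups did not overlap. It lies at chr17:39297457-39297477 (plus strand), opposite to the direction of FBXL20, in an intron of that gene. The log2 fold change of -1.01 ± 0.34 (SE; adjusted p = 0.922 in edgeR's test) was the lowest in the family. The unadjusted P was under 0.05 in edgeR's test with all 4 libraries. The log2 fold change was -0.84 without exposed replicate 1 and -0.84 without unexposed replicate 1. It was -1.18 without exposed replicate 2 and -1.17 without unexposed replicate 2.

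Across the 30 tested members, differences leaned to lower levels in the exposed cells without any passing the correction for multiple tests. Lower values were found for 24 members (80.0%) and higher values for 6, against 442 of all 863 miRNAs lower (51.2%). The median log2 fold change was -0.28 in the family and -0.01 over all miRNAs tested, with a range in the family from -1.01 to 0.85. In edgeR's quasi-likelihood test 2 members, miR-548bc and miR-548p, had an unadjusted P under 0.05, both lower, and 4.52% of all miRNAs tested did so (1.97% in that direction). 1 member, miR-548bc, was also past a fold change of 2, as were 2.32% of all miRNAs (1.04% lower). None had an adjusted p under 0.05 in edgeR, limma-voom or DESeq2, and 0% of all miRNAs did in edgeR. The share of members with a P under 0.05 was thus near that of all miRNAs and is no result about the family, and the lean to lower values was not tested as such.

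The groups did not overlap after TMM scaling for 9 of the 30 members, 8 lower and 1 higher in the exposed cells, and for 33.4% of all miRNAs (14.6% lower). Without TMM scaling they did not overlap for 11 members, of which 7 were lower, against 30.8% of all miRNAs (7.3% lower). Of the 9 tested 3p members 7 were lower, and 6 did not overlap (5 lower and miR-548ao-3p higher), with a median log2 fold change of -0.41. Of the 9 tested 5p members 7 were lower and 1 did not overlap, with a median of -0.24. Of the 12 without an arm 10 were lower and 2 did not overlap, with a median of -0.25. The difference between the arms was not tested.

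The size of the lean depended on single libraries. The family's median was -0.16 without exposed replicate 1 and -0.058 without unexposed replicate 1, and it was -0.53 without exposed replicate 2 and -0.44 without unexposed replicate 2. Members lower in the exposed cells then numbered 18, 17, 28 and 28 of 30, and the direction of the median stayed the same. In these fits 60.0, 56.7, 93.3 and 93.3% of members were lower, against 52.8, 47.2, 49.8 and 46.6% of all miRNAs tested. With library size alone as the scaling, the median of all miRNAs tested moved to 0.14 and that of the family to -0.12, so the family's median lay 0.27 below that of all miRNAs tested, as it did with TMM scaling.

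**Figure D3:**
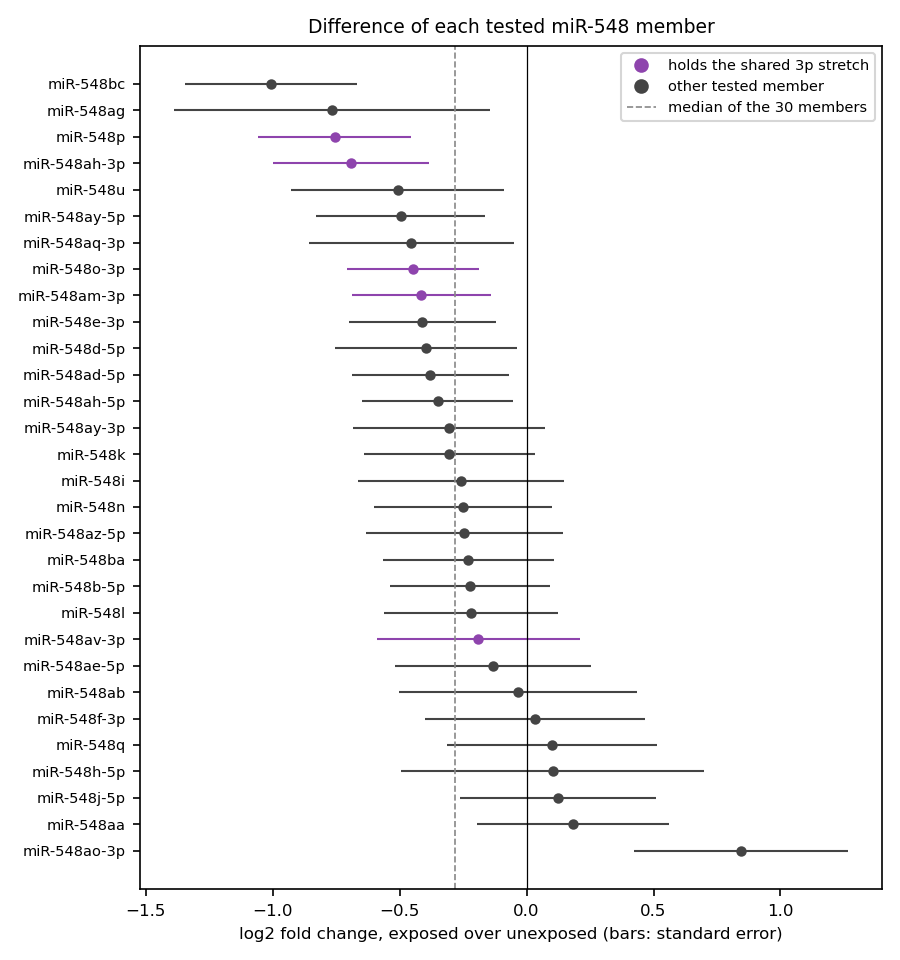
Log2 fold change of each of the 30 tested members, exposed over unexposed cells, with bars of 1 standard error. The dashed line is the members' median of -0.28, 24 points lie to the left of 0, and members with the shared stretch of 17 bases are in purple.

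The 6 members with higher values were miR-548ao-3p, miR-548aa, miR-548j-5p, miR-548h-5p, miR-548q and miR-548f-3p. They were listed after their values were seen, as was the choice to describe miR-548ao-3p. It had 62 and 53 counts with ethanol and 9 and 23 without it, or 2.46 and 2.18 CPM against 0.763 and 1.79 CPM after scaling. The groups did not overlap, and the unexposed replicates were further apart than the nearest libraries of the groups. The log2 fold change was 0.85 ± 0.42 (SE; adjusted p = 0.922 in edgeR's test), and the other 5 lay between 0.03 and 0.18.

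The standard error of the log2 fold change had a median of 0.37 (0.26 to 0.62) in the tested members and 0.33 in all miRNAs tested. Replicates of a group differed by a median of 0.37 (exposed) and 0.43 (unexposed) on the log2 scale in the members, against 0.28 and 0.41 in all tested miRNAs. Level and log2 fold change showed little relation over all tested miRNAs (Spearman's rho 0.04 across miRNAs that share the same 4 libraries, given as a description).

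**Figure D4:**
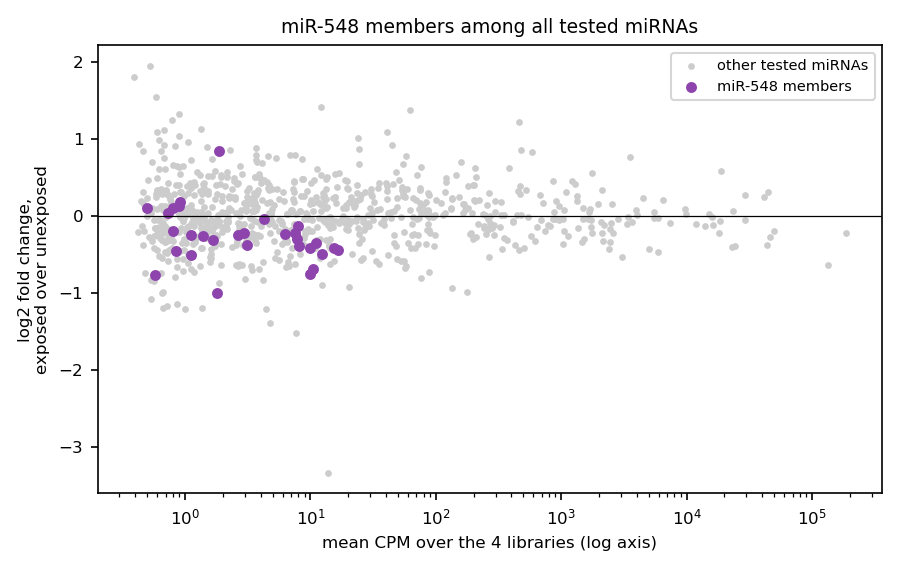
Log2 fold change against mean level over the 4 libraries (CPM, log axis) for all 863 miRNAs tested, with the 30 miR-548 members in purple. The members lie at the low end of the range, none above a mean of 16.6 CPM, and 24 of them below 0.

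The 5 members with the shared 3p stretch, printed at the start, were chosen after the data were seen. Summed, they had 907 and 1013 counts with ethanol and 631 and 775 without it, between 27.2 and 35.6% of the family. After TMM scaling this was 36.0 and 41.6 CPM against 53.5 and 60.2 CPM, with means of 38.8 ± 3.99 and 56.9 ± 4.76 CPM (SD, n = 2 each) and a difference of -0.55 on the log2 scale. The groups did not overlap. Without TMM scaling the sums were 40.8 CPM in both exposed libraries and 45.3 and 64.0 CPM in the unexposed ones (-0.42 on the log2 scale). All 5 had negative log2 fold changes, from -0.75 for miR-548p to -0.19 for miR-548av-3p, and 4 had groups that did not overlap, each lower with ethanol. Over all 863 miRNAs tested, 51.2% were lower at any P and 14.6% were lower without overlap, and a subset picked after its values were seen gives no test against these shares. Because 17 of their bases are the same, the same read could be assigned to more than 1 of them, and the 5 values are not independent.

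Seeds, known only for the 55 members with a sequence, grouped these differently. The other 26, with the abundant miR-548ay-5p, miR-548d-5p and miR-548ae-5p among them, are not in the seed counts and sums below. Those counts and sums can therefore be too low. The seed AAAGUAA was held by 11 members, 10 of them detected and 3 tested, which summed to 9.91 and 15.7 CPM with ethanol and 15.3 and 12.6 CPM without it after TMM scaling. The groups overlapped. The seed AAAAACU was held by 7 members, all detected and 3 tested (miR-548ah-3p, miR-548am-3p and miR-548aq-3p). They summed to 15.9 and 19.3 CPM against 23.5 and 27.6 CPM without overlap, most of it from members that also carry the shared stretch. The 3 members with the seed AAGGUAA, miR-548ba, miR-548ag and miR-548ai, summed to 6.26 and 6.29 CPM against 8.99 and 6.22 CPM. Among miRNAs with a sequence, miR-559 was the only one outside the family with a seed that at least 5 members hold (AAAGUAA). It had 0 counts in all libraries.

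Some members cannot be told apart by their sequence. miR-548aj-5p, miR-548g-5p and miR-548x-5p have the same 23 bases.
miR-548aj-5p: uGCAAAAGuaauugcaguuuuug
Capitals mark the seed. Their counts were 2, 1, 0 and 0 (miR-548aj-5p), the same for miR-548g-5p and 1, 1, 0 and 0 for miR-548x-5p, over exposed replicates 1 and 2 and unexposed replicates 1 and 2. The 18 bases of miR-548av-5p are contained whole in miR-548k, yet miR-548av-5p had 1, 0, 0 and 0 counts where miR-548k had 143, 211, 121 and 96. Among the 55 members with a sequence, 9 groups shared a run of at least 16 bases. The other 26, among them miR-548ay-5p, miR-548d-5p and miR-548ae-5p, could not be compared, so what they share is not known here. Levels of single members are uncertain to the extent that reads could be placed on another.

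Paired by name, most hairpins had nearly all their counts on 1 arm, and on the same arm in every library. Reads of members with near-identical sequences, or with several loci such as miR-548o-3p and miR-548f-3p, cannot be traced to a single hairpin. The shares are therefore those of the names. The table lists both arms of 28 hairpins, and 18 had at least 10 counts in some library. Over all libraries, 7 of these 18 had more than 90% of their reads on the 5p arm (miR-548ad, miR-548ae, miR-548az, miR-548b, miR-548d, miR-548h and miR-548j) and 8 had more than 90% on the 3p arm (miR-548a, miR-548am, miR-548ao, miR-548aq, miR-548av, miR-548e, miR-548f and miR-548o). miR-548o had 0.425% of 5p reads, and its 5p arm was at 1, 1, 2 and 1 counts. miR-548e had no 5p read beside 1095 3p counts. The 5p arm of miR-548am had 1 count in each library. At the other end miR-548d had 99.7% and miR-548ae 98.8% of 5p reads, and their 3p arms reached at most 1 and 4 counts in a library.

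The remaining 3 hairpins used both arms. In exposed replicate 1, 55.2% of the miR-548ah reads were 5p, with a 95% Wilson interval from 50.2 to 60.1%. The share was 54.4% (50.0 to 58.8) in exposed replicate 2. It was 49.2% (43.2 to 55.3) in unexposed replicate 1 and 48.5% (43.4 to 53.6) in unexposed replicate 2. Both exposed libraries were higher, but the intervals of all 4 overlapped. miR-548ay was 5p-rich, with 86.9 and 87.8% with ethanol and 88.5 and 89.1% without it, a difference smaller than any of its intervals. Its 3p strand, at chr3:32506305-32506326 (minus strand) between genes, was at 34 and 41 counts with ethanol and 28 and 18 without it. The log2 fold change of this strand was -0.31 ± 0.38 (SE), and it turned to 0.11 without unexposed replicate 1. miR-548t had 35.8% of 5p reads from few counts (19 and 34 over all libraries).

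**Figure D5:**
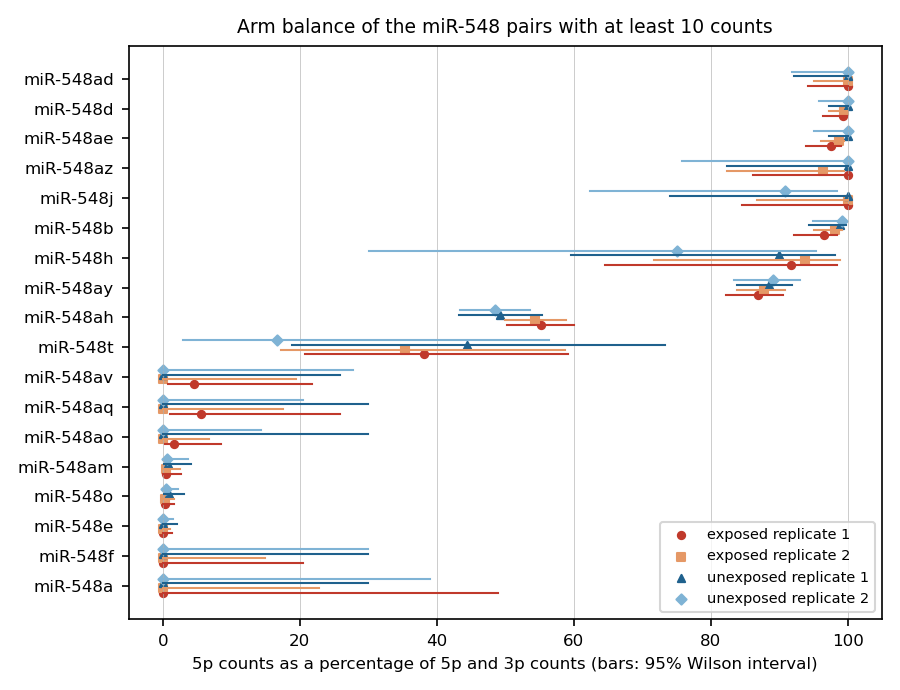
Share of 5p counts among the 5p and 3p counts of each of the 18 miR-548 hairpins with at least 10 counts in a library, by library, with 95% Wilson intervals (counting error only). Of these hairpins 7 lie above 90%, 8 below 10% and 3 between over all libraries, and the intervals of the 4 libraries overlap for each hairpin.

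The members lie far apart in the genome. RefSeq gave 51 precursors for the matched members, on 21 chromosomes. Against the GENCODE 29 annotation of GRCh38, 31 of the precursors lay in introns of a gene on the same strand, 6 in introns of a gene on the opposite strand only and 14 between genes. For 6 members there was more than 1 locus, up to 5 for miR-548f-3p, whose copies lie in introns of PCDH15, ERBB4, TMEM232 and DMD and opposite to CNTNAP2. The host genes' messenger RNA was not analysed here, and for members with several loci the counts cannot be assigned to any of them.

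Base composition moved with the measured differences outside the family. Over the 751 tested miRNAs that are not members and have a sequence, A+U content and log2 fold change had a Spearman's rho of -0.31 and a Pearson's r of -0.29, a description across miRNAs measured in the same 4 libraries. The 20 tested members with a sequence had a median A+U content of 64.3%, against 50.0% in those others. The part of base composition in the family's lower values was not tested.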

How the data were processed

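The authors built NEBNext small RNA libraries from total RNA, ran CAP-miRseq on the single-end reads and deposited the resulting raw counts, 1 value per mature miRNA and library, without normalization. Their processing notes name the build hg19. The miRNA release, the pipeline's version and the treatment of reads that fit several miRNAs are not given in the sources used here, and the counts carry no coordinates. The labels gave each library's group and replicate number. The members and lists were chosen with earlier results of these data known. Members described singly were the 10 most abundant, those with an unadjusted P under 0.05, the 3 the study names for the cells, the other arms of their hairpins and members of identical sequence.

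The fit used edgeR 4.0.16 in R 4.3.3 on all 863 miRNAs kept by filterByExpr (minimum count 10, minimum total 15), with TMM factors and the quasi-likelihood test without covariates, adjusted by Benjamini-Hochberg. Standard errors came from the F statistic. The scripts were checked on simulated counts. Other settings tried were DESeq2 1.42.0, voom in limma 3.58.1, other scalings and filters, a replicate block, shared sequences counted once and leaving out each library. Same-numbered libraries did not deviate together (correlation of deviations -0.186), so the numbers were not taken as pairs. Sequences and positions are RefSeq's, matched by name, and host genes GENCODE 29, both on GRCh38.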

Additional observations from a re-analysis of the deposited data

How the results depend on the processing

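No member had an adjusted p under 0.05 in the main fit or in any alternative that kept all 4 libraries, DESeq2 among them. Of all miRNAs tested, 0 had one in the main fit and 6 of 1825 did without a filter. Fits with a library left out leave 1 library in a group, so no counts of calls are given for them. The number past both the fold change and the P limit, 1 in the main fit, became 0 with DESeq2 and with library size only. It stayed at 1 in the other settings that kept all 4 libraries. Of all 863 miRNAs tested, 10 were past both limits with DESeq2 and 23 with library size only. The 2 members with an unadjusted P under 0.05 became 0 with library size only and 5 of 71 without a filter. Of all miRNAs tested, 4.29% had such a P with library size only and 5.15% without a filter. With the replicate block 1 member had a P under 0.05, since miR-548p (log2 fold change -0.76) lost it. With crossed numbers, added after seeing the data, 4 did, miR-548ah-3p (-0.69) among them. The shares of all miRNAs tested were 2.9% with the replicate block and 6.84% with crossed numbers. Neither block changed the number of members lower, and the median was -0.28 in both. Without a filter 46 of 71 members were lower (64.8%, against 45.7% of all miRNAs tested). When a library was left out 17 to 28 of 30 were lower (56.7 to 93.3%, against 46.6 to 52.8% of all). The median log2 fold change of the tested members ranged from -0.527 to -0.058 with a library left out and from -0.38 to -0.12 otherwise. The log2 difference of the summed level was -0.37 with TMM, -0.41 with DESeq2's size factors and -0.33 to -0.13 with a library left out. Members detected numbered 31, 32, 25 and 27 at 10 counts and 23, 22, 20 and 23 at 1 CPM (exposed replicates 1 and 2, then unexposed). The sign of miR-548ae-5p turned with library size only (0.045). With a library left out, miR-548ae-5p ranged from -0.54 to 0.42, miR-548d-5p from -0.75 to 0.054 and miR-548ay-3p from -0.65 to 0.11, turning without unexposed replicate 1 (and, for miR-548ae-5p, without exposed replicate 1, 0.11). The P of miR-548bc was above 0.05 with DESeq2 and with library size only, that of miR-548p with library size only, and that of miR-548ah-3p was under 0.05 with DESeq2. The causes were not tested. Members that stayed under 10 counts in every library were too rare to be tested in the main fit. Those of them with any count were tested only in the fit without a filter.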
